A study of Mus musculus with 34 samples.

Results

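The 10 Notch pathway genes described here are the receptors Notch1, Notch2 and Notch3, the ligands Jag1, Jag2 and Dll1, the DNA-binding effector Rbpj and the target genes Hes1, Hey1 and Heyl. They were chosen by name out of 21631 protein-coding genes placed on the autosomes and X of the mouse genome (GRCm38). Each gene was represented by every 1 kb bin that overlaps its span with 10 kb on either side, which gave 629 bins of the 2631630 used. The windows also hold parts of other genes, among them Slx4ip beside Jag1, Nudt14 beside Jag2, Nt5c1a beside Heyl and the noncoding 0610009E02Rik beside Notch1. The libraries came from C2C12 cells, an established line of mouse myoblasts, the precursors of muscle fibres. They were made by multi-target chromatin integration labelling (mtChIL-seq), in which antibodies carrying DNA probes mark their targets inside fixed cells and a transposase inserts the probes into the DNA nearby. The signal is therefore a count of reads from DNA close to the target.

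Cells were stained with both antibodies of a pair (dual) or with 1 of them (single), and no group carries a genetic change or drug in the labels. Dual staining for H3K4me3 and CTCF was done on 10000 and on 1000 cells, and dual staining for H3K27ac and Pol2S2P on 1000 and on 100 cells, with 3 replicates of each. Single staining was done for CTCF on 10000 cells and for Pol2S2P on 1000 cells, with 2 replicates of each. The 28 libraries form 10 groups of target, staining and cell number. The labels do not say whether the cells were growing or differentiating, or whether each replicate is a culture of its own. The p-values below therefore describe the spread among these libraries, and that spread may be technical.

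H3K4me3 is a histone mark of the promoters of active genes, and H3K27ac is a mark of active promoters and enhancers. CTCF is a zinc finger protein that binds DNA at the borders and anchors of chromatin loops, and Pol2S2P is the phosphorylated form of RNA polymerase II found over genes being transcribed. Notch receptors sit in the cell membrane and are bound by Jagged and Delta ligands on neighbouring cells, after which the cut receptor's inner part enters the nucleus, joins RBPJ on DNA and switches on genes such as Hes1. In skeletal muscle the pathway is known for keeping muscle stem cells and myoblasts from differentiating.

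Depth ran from 719766 to 1973692 counts in the H3K4me3 libraries, from 2074331 to 6653298 in the CTCF libraries, from 1158754 to 3139311 in the H3K27ac libraries and from 1255432 to 3645778 in the Pol2S2P libraries. Levels are given as times the genome mean, the count per bin of a region divided by the library's mean count per bin. At gene starts, H3K4me3 in 10000 cells had a median over 8 myoblast markers of 14.8 times the genome mean, against 2.68 over the starts of 21276 genes. The medians were 35.4 for 6 mesenchymal markers, 0.424 for the 4 blood markers with a start, 0.206 for 3 liver markers and 0.206 for 3 neuronal markers. Single myoblast markers ran from 0.296 at Pax7 to 42.8 at Myf5, and Vcam1 at 1.31 and Myod1 at 1.76 also lay below 2.68. Mesenchymal markers ran from 0.906 at Pdgfra to 86.4 at Vim. The highest pluripotent marker was Nanog at 1.97 and the highest endothelial one Pecam1 at 1.40. Over the 10 Notch pathway genes the median was 8.85, with single genes from 1.06 to 51.6.

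Promoter sequences were held for 7 of the 10 genes in the RefSeq-derived table (GRCm38.p6), which runs from 250 bases before to 50 bases after a start. The genes shown are Rbpj and Notch2, which carried the highest H3K4me3 at their starts among those 7, and Jag2 and Dll1, which carried the lowest. Capitals mark CG dinucleotides. Rbpj lies at chr5:53590096-53590395 on the + strand, Notch2 at chr3:98013288-98013587 on the + strand, Jag2 at chr12:112929446-112929745 on the - strand and Dll1, at the lower-coordinate of its listed starts, at chr17:15375774-15376073 on the - strand.
Rbpj: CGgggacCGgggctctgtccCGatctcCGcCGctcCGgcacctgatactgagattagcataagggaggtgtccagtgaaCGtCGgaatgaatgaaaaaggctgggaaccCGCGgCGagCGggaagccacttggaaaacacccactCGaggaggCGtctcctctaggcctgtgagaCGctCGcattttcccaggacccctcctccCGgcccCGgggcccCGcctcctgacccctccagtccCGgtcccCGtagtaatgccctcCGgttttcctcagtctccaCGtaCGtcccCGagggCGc
Notch2: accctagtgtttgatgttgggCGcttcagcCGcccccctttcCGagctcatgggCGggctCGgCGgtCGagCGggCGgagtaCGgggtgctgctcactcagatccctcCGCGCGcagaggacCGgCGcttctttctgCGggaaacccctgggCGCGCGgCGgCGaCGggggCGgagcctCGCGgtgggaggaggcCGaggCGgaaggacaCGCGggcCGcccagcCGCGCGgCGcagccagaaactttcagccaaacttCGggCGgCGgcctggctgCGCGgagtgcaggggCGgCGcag
Jag2: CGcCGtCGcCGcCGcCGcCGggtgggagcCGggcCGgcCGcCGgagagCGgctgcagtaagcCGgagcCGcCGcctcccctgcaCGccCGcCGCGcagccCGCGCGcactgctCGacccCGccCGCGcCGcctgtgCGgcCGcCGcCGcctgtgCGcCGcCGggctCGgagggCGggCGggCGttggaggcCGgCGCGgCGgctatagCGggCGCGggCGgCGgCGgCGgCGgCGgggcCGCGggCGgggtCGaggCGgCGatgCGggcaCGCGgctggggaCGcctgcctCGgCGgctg
Dll1: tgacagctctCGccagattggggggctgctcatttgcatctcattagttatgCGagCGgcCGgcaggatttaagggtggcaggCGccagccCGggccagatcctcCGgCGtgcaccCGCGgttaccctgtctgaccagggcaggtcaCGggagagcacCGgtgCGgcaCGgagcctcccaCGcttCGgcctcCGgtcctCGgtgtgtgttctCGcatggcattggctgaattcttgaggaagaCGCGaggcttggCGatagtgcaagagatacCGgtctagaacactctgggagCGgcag

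All 9 promoter entries of the 7 genes held more CG dinucleotides than the median of 7 over 32851 mouse promoters of this length. The Jag2 promoter held 63, at percentile 99.98, and the Notch2 promoter 41, at percentile 96.76. The printed Rbpj promoter held 26 and the printed Dll1 promoter 24, so the order by CG count was not the order by H3K4me3. The core of the RBPJ binding motif, TGGGAA or TTCCCA on the printed strand, is in 25.6% of all promoters of this length. It was found in the Rbpj promoter, 2 times in the printed entry, and in no promoter entry of the other 6 genes. GGGCGG or CCGCCC, the GC box that SP1 binds, is in 35.7% of all promoters. It occurred 7 times in Notch2, 5 times in Notch1, 5 times in Jag2, 4 times in Notch3 and 1 time in the Rbpj entry not printed. The palindromic E-box CACGTG, in 7.15% of all promoters, and TATAAA or TTTATA, in 13.6%, were in none of the 9.

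The starts of Rbpj, Hes1 and Notch2 carried the highest H3K4me3 of the 10 genes, and those of Dll1 and Heyl the lowest. A start is the set of bins within 1 kb of a listed transcription start. For Hes1, Hey1 and Heyl no start was held, and levels were read at the gene end with more H3K27ac counts, which may not be the start. Their H3K27ac levels were thus read at an end that H3K27ac itself chose. In 10000 cells the mean H3K4me3 level was 51.6 ± 9.98 times the genome mean at Rbpj, 51.2 ± 3.95 at Hes1, 33.7 ± 4.22 at Notch2, 19.1 ± 2.49 at Notch1, 11.2 ± 2.35 at Jag1 and 6.52 ± 2.22 at Notch3 (SD, n = 3). It was 3.14 ± 1.04 at Jag2, 2.99 ± 0.747 at the lower-coordinate end of Hey1, 1.37 ± 0.934 at Dll1 and 1.06 ± 0.396 at the higher-coordinate end of Heyl (SD, n = 3). Neighbours in this order did not overlap between Hes1 and Notch2, Notch2 and Notch1, and Notch1 and Jag1. Rbpj and Hes1 overlapped, as did each pair of neighbours below Jag1, where Jag1 and Notch3 met at their lowest and highest library. Among 21276 starts these levels stood at percentile 97.3 for Rbpj, 97.2 for Hes1, 90.1 for Notch2, 74.9 for Notch1 and 38.8 for Heyl.

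**Figure D1:**
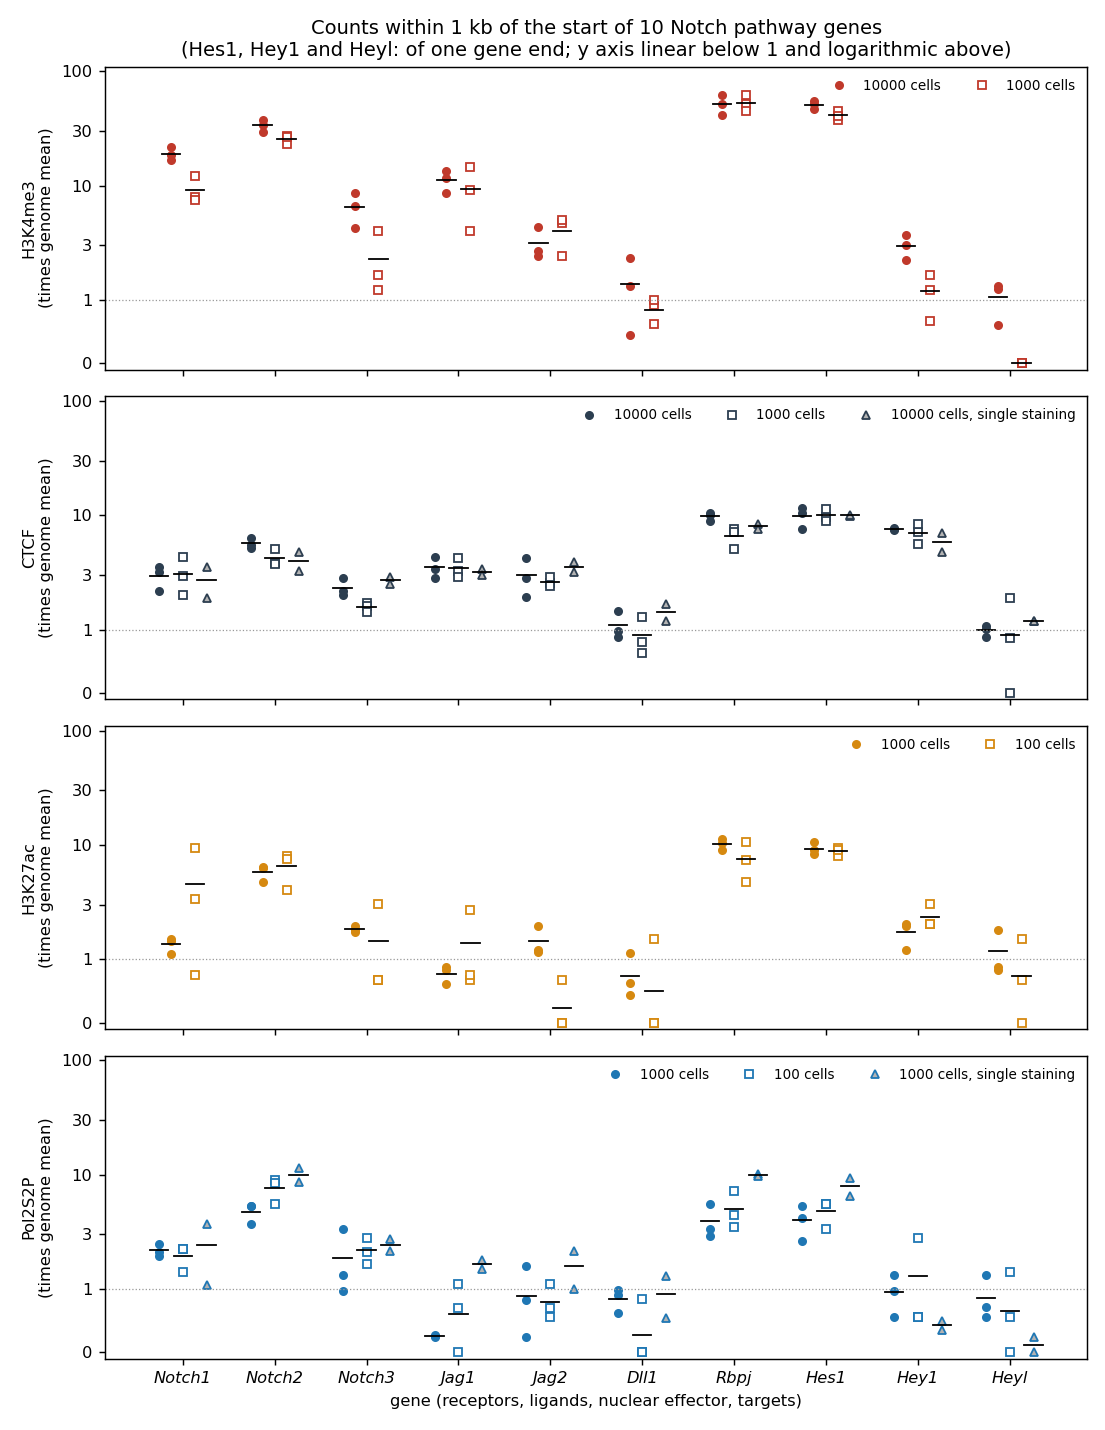
Level at the starts of the 10 genes, as times the genome mean per 1 kb bin (vertical axis, linear below 1 and logarithmic above), with a panel for each target and a colour for each group of cell number and staining. Dots are libraries and bars are group means. Rbpj, Hes1 and Notch2 stand highest for H3K4me3, H3K27ac and Pol2S2P. For CTCF Hey1, read at its lower-coordinate end, which may not be its start, joins Hes1, Rbpj and Notch2 at the top.

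Among the receptors, Notch2 carried every target at its start and Notch1 mainly H3K4me3, while Notch3 had less H3K4me3 than either. H3K4me3 at the Notch2 start (gene at chr3:98013538-98150367, + strand) was 37.8, 29.3 and 33.9 times the genome mean in 10000 cells and 23.2, 27.3 and 26.7 times in 1000 cells. At the Notch1 start (gene at chr2:26457902-26503822, - strand) it was 18.6, 16.9 and 21.8 times in 10000 cells and 12.2, 7.99 and 7.5 times in 1000 cells. All 3 Notch2 libraries of 10000 cells lay above all 3 of 1000 cells, and the same held for Notch1. Cell number was not tested at starts, and the share of all starts whose libraries lie apart in this way was not counted. At the Notch3 start (gene at chr17:32120820-32166896, - strand) H3K4me3 was 8.67, 6.67 and 4.24 times in 10000 cells and 1.22, 4.0 and 1.67 times in 1000 cells. CTCF in 10000 dual-stained cells was 5.49, 6.36 and 5.18 times at Notch2, 3.19, 3.51 and 2.16 times at Notch1, and 2.84, 2.01 and 2.16 times at Notch3.

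H3K27ac at the Notch2 start was 4.75, 6.39 and 6.34 times the genome mean in 1000 cells and 8.08, 4.05 and 7.57 times in 100 cells. Pol2S2P there was 5.29, 5.27 and 3.69 times in 1000 dual-stained cells, 5.55, 8.91 and 8.38 times in 100 dual-stained cells and 11.4 and 8.63 times in 1000 single-stained cells. H3K27ac at the Notch1 start was 1.12, 1.45 and 1.51 times in 1000 cells, whereas the 3 libraries of 100 cells gave 3.37, 9.45 and 0.757 times. The Notch1 values in 100 cells ranged more widely than those in 1000 cells, with the second replicate far above the others. H3K27ac at the Notch3 start was 1.96, 1.74 and 1.81 times in 1000 cells, close to the 1.12 to 1.51 times at Notch1 but without overlap.

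Inside the gene, Notch2 was the highest of the receptors for H3K27ac and Pol2S2P in 1000 dual-stained cells. Over the bins more than 2 kb inside its ends, H3K27ac was 3.07, 3.61 and 3.81 times the genome mean in 1000 cells and 4.48, 3.61 and 4.05 times in 100 cells. Pol2S2P there was 3.66, 3.65 and 3.59 times in 1000 dual-stained cells and 5.05 and 5.27 times in 1000 single-stained cells. The Notch2 means in 1000 dual-stained cells, 3.50 ± 0.383 for H3K27ac and 3.63 ± 0.04 for Pol2S2P (SD, n = 3), stood at percentiles 93.5 and 89.9 of 16781 gene interiors, whose medians were 1.17 and 1.48. The Notch1 interior had means of 1.19 and 1.23 times, and the Notch3 interior 1.82 and 1.62 times, for H3K27ac and Pol2S2P in the same cells. A single bin within Notch2, chr3:98056601-98057600, 43.6 kb from the start, was the highest of its 158 bins for CTCF, H3K27ac and Pol2S2P. In that bin CTCF was 8.51, 10.5 and 12.9 times in 10000 dual-stained cells, H3K27ac 15.1, 23.5 and 19.9 times and Pol2S2P 12.3, 15.8 and 14.2 times in 1000 dual-stained cells. The annotation used gives gene spans only, so exons and introns were not told apart.

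The ligand Jag1, which binds Notch receptors from a neighbouring cell, carried H3K4me3 near its start but little H3K27ac or Pol2S2P in 1000 dual-stained cells. H3K4me3 at the Jag1 start (gene at chr2:137081451-137116520, - strand) was 8.67, 11.6 and 13.3 times the genome mean in 10000 cells and 14.6, 4.0 and 9.16 times in 1000 cells. The highest Jag1 bin lay 1.6 kb inside the gene, at chr2:137114446-137115445, with 33.4, 26.7 and 38.1 times in 10000 cells and 32.9, 19.98 and 32.5 times in 1000 cells. The groups of 10000 and 1000 cells overlapped at both places. H3K27ac at the Jag1 start was 0.838, 0.872 and 0.604 times in 1000 cells and Pol2S2P 0.241, 0.278 and 0.264 times in 1000 dual-stained cells, all below the genome mean. Pol2S2P was 1.49 and 1.80 times in 1000 single-stained cells, and H3K27ac 0.674, 2.70 and 0.757 times in 100 cells. CTCF was highest 2.6 kb inside Jag1, at chr2:137113446-137114445, with 11.2, 14.1 and 11 times in 10000 dual-stained cells and 16.3 and 15.4 times in 10000 single-stained cells.

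Jag2 and Dll1, the other ligands, had less H3K4me3 at their starts than Jag1 in 10000 cells. Mean levels at the Jag2 start were above the median start for H3K4me3 (3.14 against 2.68) and CTCF (3.01 against 2.28) in 10000 dual-stained cells. In 1000 dual-stained cells they were below it for H3K27ac (1.44 against 1.47) and Pol2S2P (0.885 against 1.58). Dll1 was below the median start for all 4 targets in the same cells, at 1.37, 1.10, 0.732 and 0.838 times. H3K4me3 at the Jag2 start (gene at chr12:112907803-112929812, - strand) was 4.33, 2.67 and 2.42 times the genome mean in 10000 cells and 2.44, 4.66 and 5.0 times in 1000 cells, so the groups overlapped. At the 2 Dll1 starts (gene at chr17:15367354-15376932, - strand) it was 2.32, 1.33 and 0.454 times in 10000 cells and 0.914, 0.999 and 0.625 times in 1000 cells, again with overlap. The Jag2 interior had 0.481 times H3K27ac and 0.516 times Pol2S2P in 1000 dual-stained cells, and the Dll1 interior 0.532 and 0.538 times, all under the medians of all gene interiors. The highest H3K27ac bin of the Jag2 window, chr12:112937541-112938540, lay 8.5 kb upstream of the start within the neighbouring gene Nudt14 and had 9.22, 13.1 and 9.05 times in 1000 cells.

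Rbpj, the DNA-binding protein through which all Notch receptors act, had the highest mean H3K27ac and Pol2S2P in 1000 dual-stained cells of the 8 genes long enough (5 kb) to have an interior. Its listed starts lie inside its listed span (chr5:53555779-53657445, + strand). H3K4me3 at the Rbpj start was 51.4, 41.8 and 61.7 times the genome mean in 10000 cells and 62.2, 51.3 and 45.0 times in 1000 cells, and the groups overlapped. CTCF was 10.1, 10.5 and 8.84 times in 10000 dual-stained cells, 5.07, 7.53 and 7.18 times in 1000 dual-stained cells and 8.33 and 7.65 times in 10000 single-stained cells. H3K27ac was 11.2, 10.5 and 9.05 times in 1000 cells and 7.41, 4.73 and 10.6 times in 100 cells. Pol2S2P was 3.37, 5.55 and 2.90 times in 1000 dual-stained cells, 4.44, 7.24 and 3.49 times in 100 dual-stained cells and 10.2 and 9.71 times in 1000 single-stained cells. Both single-stained libraries lay above all 6 dual-stained ones, a separation whose share among all starts was not counted. The median over all starts was also higher in single-stained cells, at 2.38 times. It was 1.58 times in 1000 and 1.53 times in 100 dual-stained cells.

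The Rbpj interior had 4.49, 4.12 and 4.25 times the genome mean of H3K27ac in 1000 cells and 4.82, 3.88 and 4.85 times in 100 cells. Its Pol2S2P was 4.27, 4.16 and 4.35 times in 1000 dual-stained cells, 4.68, 5.08 and 4.54 times in 100 dual-stained cells and 4.73 and 5.36 times in 1000 single-stained cells, where it overlapped with Notch2. The means in 1000 dual-stained cells were 4.29 ± 0.185 for H3K27ac and 4.26 ± 0.0972 for Pol2S2P (SD, n = 3), without the bins at the listed starts. With those bins, which the interiors of all genes keep, they were 4.47 and 4.25, at percentiles 96.3 and 93.7 of all interiors. Different Rbpj bins were highest for different targets. H3K4me3 peaked 1.8 kb downstream of the start, at chr5:53591786-53592785, with 91.0, 74.7 and 89.0 times in 10000 cells and 113, 99.9 and 87.5 times in 1000 cells. CTCF peaked at 3.8 kb, at chr5:53593786-53594785, with 14.9, 21.6 and 22.0 times in 10000 dual-stained cells. H3K27ac peaked 25.1 kb upstream of the start, at chr5:53564786-53565785 within the listed span, with 17.6, 25.3 and 22.6 times in 1000 cells and 40.4, 14.2 and 34.1 times in 100 cells.

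Of the 3 target genes, Hes1 was marked by all 4 targets and Heyl by CTCF in a bin outside the gene. Hey1 had CTCF at its lower-coordinate end, and H3K4me3 mainly at its other end, which overlaps another gene. These are the target genes Hes1, Hey1 and Heyl. All 3 target genes encode repressors of the basic helix-loop-helix family. H3K4me3 at the Hes1 start (gene at chr16:30065357-30067796) was 51.4, 55.1 and 47.2 times the genome mean in 10000 cells and 37.8, 45.3 and 40.8 times in 1000 cells, without overlap. The start of Hes1 was taken at its lower-coordinate end, and at the other end of Hes1 H3K4me3 was 53.9, 50.7 and 35.7 times in 10000 cells. CTCF at the Hes1 start was 11.7, 7.53 and 10.6 times in 10000 dual-stained cells, 9.73, 11.3 and 8.90 times in 1000 dual-stained cells and 9.86 and 10.2 times in 10000 single-stained cells, and all 3 groups overlapped. H3K27ac was 8.38, 9.01 and 10.6 times in 1000 cells and 8.08, 9.45 and 9.08 times in 100 cells. Pol2S2P was 2.65, 5.27 and 4.22 times in 1000 dual-stained cells, 5.55, 3.34 and 5.59 times in 100 dual-stained cells and 9.45 and 6.48 times in 1000 single-stained cells.

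The highest Hes1 bins for H3K4me3 and for CTCF were 2.0 kb apart. H3K4me3 was highest at chr16:30064881-30065880, with 78.0, 74.7 and 74.5 times the genome mean in 10000 cells and 43.9, 53.9 and 55.0 times in 1000 cells. CTCF was highest at chr16:30066881-30067880, a bin shared with the predicted gene Gm32998, with 22.9, 20.1 and 20.1 times in 10000 dual-stained cells, 21.6, 24.2 and 15.5 times in 1000 dual-stained cells and 16.8 and 13.4 times in 10000 single-stained cells.

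Hey1 (chr3:8663359-8667038) had more CTCF at its lower-coordinate end and more H3K4me3 at its higher-coordinate end. The higher end overlaps another protein-coding gene, LOC115489673 (chr3:8666924-8669688), so the H3K4me3 there cannot be assigned to Hey1 alone. At the lower-coordinate end, which held more H3K27ac, H3K4me3 was 3.71, 2.22 and 3.03 times the genome mean in 10000 cells and CTCF 7.44, 7.70 and 7.55 times in 10000 dual-stained cells. At the higher-coordinate end of Hey1, H3K4me3 was 11.8, 7.11 and 8.47 times in 10000 cells and CTCF 4.25, 4.02 and 3.88 times. H3K4me3 was thus below CTCF in all 3 replicates at the lower end and above it in all 3 at the higher end. In 1000 cells H3K4me3 at the lower end of Hey1 was 1.22, 0.666 and 1.67 times and CTCF 7.19, 5.65 and 8.33 times. The table of starts used here does not say which end of Hey1 is its start. The highest CTCF bin of Hey1, chr3:8663966-8664965, had 18.6, 17.1 and 20.7 times in 10000 dual-stained cells and 13.3 and 8.31 times in 10000 single-stained cells.

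Heyl (chr4:123233556-123249870) had little H3K4me3 at its higher-coordinate end, taken as its start, with 1.24, 1.33 and 0.605 times the genome mean in 10000 cells. No count fell there in any of the 3 H3K4me3 libraries of 1000 cells, where 3 counts per library would be 2.00 to 3.66 times, so a level below that was not detectable at this depth. Such a floor covers counting error only, and no source used here mentions molecular identifiers. The higher-coordinate end of Heyl was chosen on 15 H3K27ac counts, against 1 at the other end, and may not be the start. At the other end no H3K4me3 count fell in the 3 libraries of 10000 cells. CTCF at the higher-coordinate end was 0.886, 1.00 and 1.08 times in 10000 dual-stained cells, close to the genome mean. A single bin 5.1 kb from that end, chr4:123254501-123255500, held the highest CTCF of the Heyl window, with 11.7, 10.0 and 9.71 times in 10000 dual-stained cells, 20.3, 13.7 and 13.8 times in 1000 dual-stained cells and 14.8 and 13.4 times in 10000 single-stained cells. It was high in all 8 CTCF libraries.

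**Figure D2:**
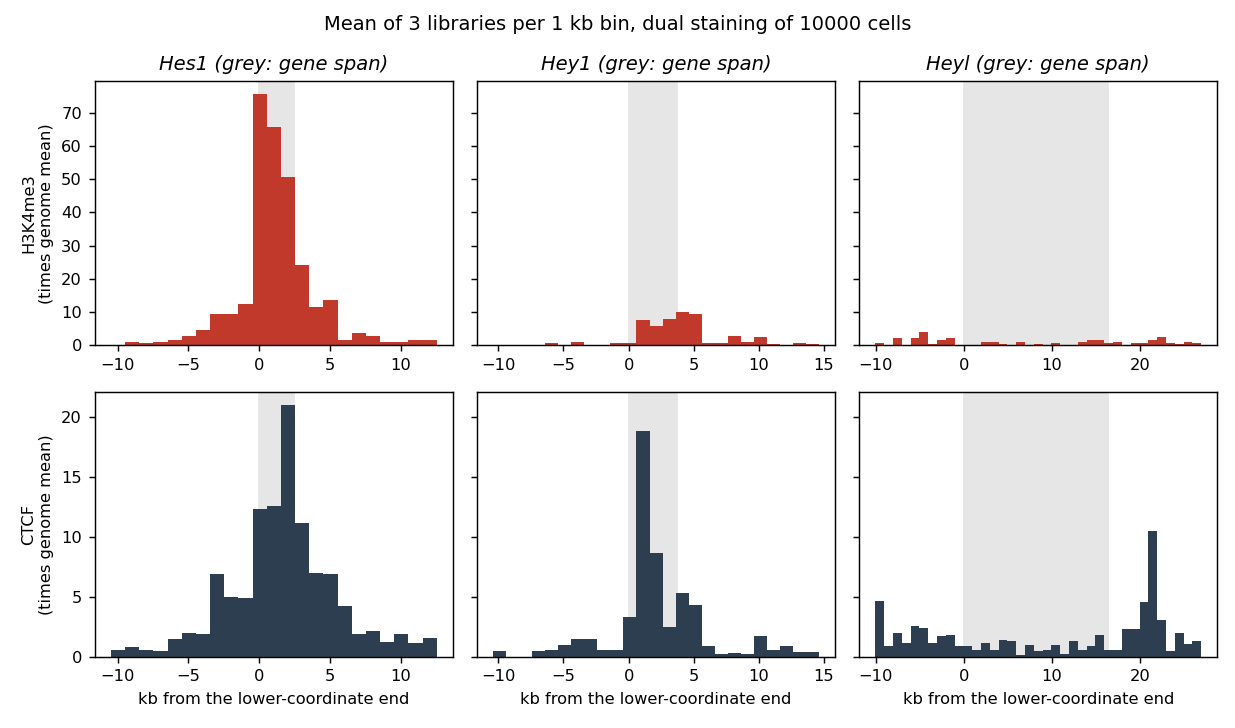
H3K4me3 (top) and CTCF (bottom) per 1 kb bin in 10000 dual-stained cells across the windows of Hes1, Hey1 and Heyl, as times the genome mean (vertical axis) against the distance in kb from the lower-coordinate end of the gene. Lines are means of 3 libraries and grey marks the gene span. Both targets are high over Hes1, CTCF is highest near the lower-coordinate end of Hey1, and the highest CTCF bin of Heyl lies outside the gene, 5.1 kb beyond its higher-coordinate end.

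The 4 targets were also compared by the bins of at least 5 times the genome mean. Among the 629 bins of the 10 genes, such bins made up 10.8% for H3K4me3 in 10000 cells, against 2.58% of the genome, and 7.31% for CTCF in 10000 dual-stained cells, against 2.51%. For H3K27ac in 1000 cells it was 12.6% against 2.36%, and for Pol2S2P in 1000 dual-stained cells 12.2% against 2.04%. The genome shares include bins far from any gene, and the share over the windows of all genes was not counted. Of the 79 such H3K27ac bins 32 lay in the Rbpj window, 30 in Notch2 and 8 in Hes1. Of the 77 such Pol2S2P bins 45 lay in Rbpj and 29 in Notch2.

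The first comparison set H3K4me3 against CTCF from the same dual-stained cells, at starts. In 10000 cells, 7 of the 10 starts passed the filter on low counts, and H3K4me3 was higher at 6 and lower at 1 (edgeR's quasi-likelihood test with Benjamini-Hochberg adjustment). Among all starts tested H3K4me3 was higher at 85.0% and lower at 5.76%, with a median log2 fold change of 1.93, so the count of higher starts is near the background. The receptor Notch1 had a log2 fold change of 2.63 (SE 0.25, adjusted p = 7.34e-23), and Notch2 2.53 (SE 0.18, adjusted p = 2.23e-35). Hes1 had 2.39 (SE 0.15, adjusted p = 1.34e-43) and Rbpj 2.35 (SE 0.15, adjusted p = 2.29e-42). At these 4 starts all 3 H3K4me3 libraries lay above all 3 CTCF libraries, a separation whose share among all starts was not counted. The fold of the ligand Jag1 was 1.69 and that of Notch3 1.47, both smaller than the median of all starts. With edgeR's TMM scaling, under which the median start falls to 0.02, the folds were -0.21 for Jag1 and -0.43 for Notch3, against 0.72 for Notch1, 0.61 for Notch2, 0.47 for Hes1 and 0.43 for Rbpj. The direction at Jag1 and Notch3 therefore depends on the scaling.

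The start that was lower was the lower-coordinate end of Hey1, which may not be its start. At the other end of Hey1 H3K4me3 lay above CTCF in all 3 replicates. The lower-coordinate end had 3.41 ± 0.851 CPM (counts per 1000000 of the library's total) of H3K4me3 and 8.62 ± 0.146 of CTCF (SD, n = 3). Its log2 fold change was -1.37 (SE 0.35, adjusted p = 1.16e-04), which TMM scaling made larger, at -3.27. It held 16 H3K4me3 counts, against 123 CTCF counts, and reached the minimum count in all libraries of CTCF alone, so the test is not independent of the filter. At Rbpj, Hes1 and Notch2 all libraries of both targets reached it, and at Notch1, Jag1 and Notch3 those of H3K4me3 alone. In 1000 cells 5 starts were tested, of which 4 were higher and 1 lower, with 87.4% higher and 3.74% lower among all starts. Rbpj had 2.93 (SE 0.22, adjusted p = 5.15e-23), Notch2 2.59 (SE 0.29, adjusted p = 3.91e-14), Hes1 2.05 (SE 0.22, adjusted p = 2.38e-15) and Notch1 1.48 (SE 0.41, adjusted p = 4.80e-04). Hey1 was again the lower one, with 4 H3K4me3 counts over the 3 libraries, against 67 CTCF counts. It reached the minimum count through CTCF alone, so its direction follows from the filter. Hes1 reached that count in all libraries of both targets. Rbpj, Notch2 and Notch1 reached it in all libraries of H3K4me3 alone, so their tests are not independent of the filter either. With TMM scaling Rbpj kept its call at 0.83, Notch2 had 0.50 and no call, and Hes1 and Notch1 turned to -0.04 and -0.59 with none. Jag2, Dll1 and Heyl had too few counts to be tested at either cell number, and Jag1 and Notch3 too few in 1000 cells.

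**Figure D3:**
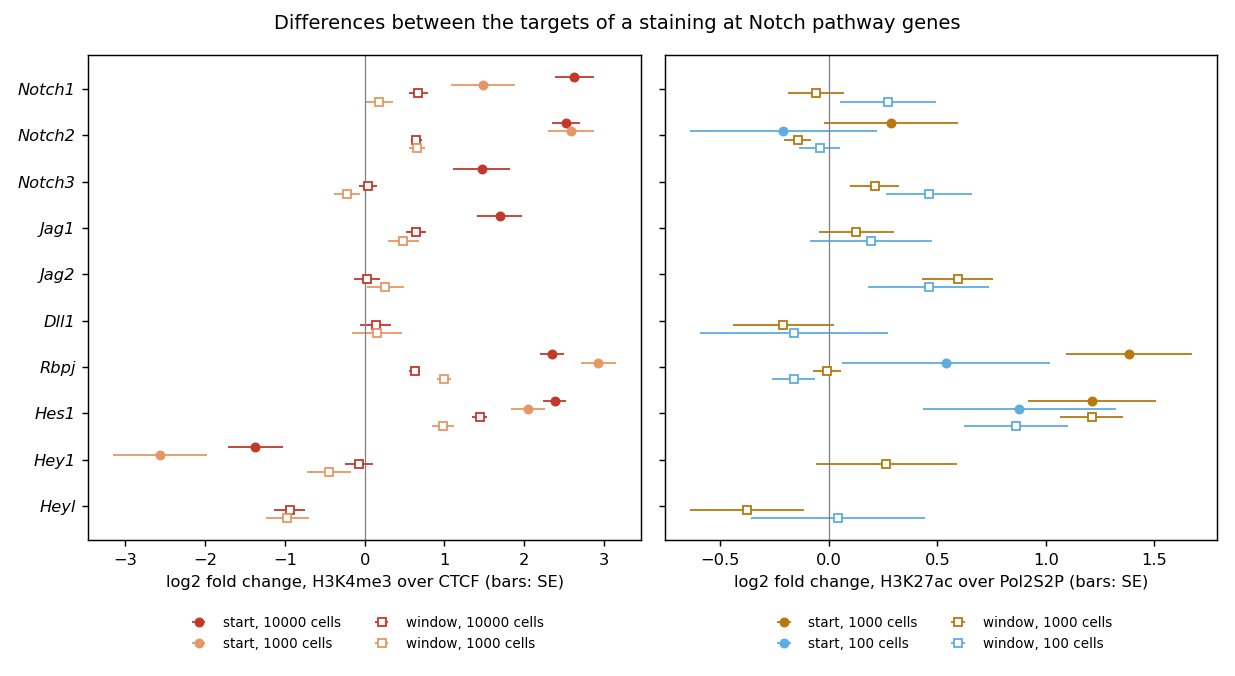
Log2 fold change with its standard error for H3K4me3 over CTCF (left) and H3K27ac over Pol2S2P (right), at starts (filled) and over whole windows (open), for each of the 10 genes that could be tested. At starts the H3K4me3 over CTCF fold runs from -1.37 at the lower-coordinate end of Hey1 to 2.63 at Notch1 in 10000 cells, and windows lie closer to 0. With TMM scaling the folds of the Jag1 and Notch3 starts in 10000 cells and of the Notch1 and Hes1 starts in 1000 cells turn negative, and those of the Notch2 and Rbpj windows for H3K27ac over Pol2S2P in 1000 cells turn positive.

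Over whole windows the folds were smaller. In 10000 cells, 5 windows were higher for H3K4me3 and 1 was lower, with 46.5% higher and 32.8% lower among all gene windows and a median of 0.15. Hes1 had 113 ± 8.45 CPM of H3K4me3 and 41.7 ± 2.55 of CTCF (SD, n = 3), a log2 fold change of 1.44 (SE 0.09, adjusted p = 8.31e-40). Notch1 had 0.67 (SE 0.12, adjusted p = 2.09e-08), Notch2 0.65 (SE 0.07, adjusted p = 1.82e-19), Jag1 0.64 (SE 0.13, adjusted p = 1.08e-06) and Rbpj 0.63 (SE 0.06, adjusted p = 4.24e-19), and these 5 kept direction and call with TMM scaling. Heyl was the window that was lower, with 12.1 ± 1.60 CPM of H3K4me3 and 23.5 ± 2.36 of CTCF (SD, n = 3) and a log2 fold change of -0.94 (SE 0.20, adjusted p = 4.80e-06), or -0.55 (adjusted p = 0.166) over the gene alone without its flanks. Dll1, Notch3, Jag2 and Hey1 had folds from -0.08 to 0.14 and no call.

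In 1000 cells the windows of Rbpj, Hes1, Notch2 and Jag1 were higher and that of Heyl lower, with 43.2% higher and 27.6% lower among all windows. Rbpj had 234 ± 18.4 CPM of H3K4me3 and 117 ± 6.97 of CTCF (SD, n = 3), a log2 fold change of 0.99 (SE 0.09, adjusted p = 1.94e-22). The fold was 0.98 for Hes1, 0.66 for Notch2 and -0.97 for Heyl. The Jag1 fold of 0.49 (adjusted p = 0.0196) fell to 0.32 (adjusted p = 0.178) without the first H3K4me3 replicate and to 0.24 (adjusted p = 0.261) with TMM scaling. A change of the H3K4me3 over CTCF difference between 10000 and 1000 cells was called for 0 of the 10 windows by edgeR and 0 by DESeq2, against 0.00523% of all windows by edgeR. The change was -0.36 for Rbpj (adjusted p = 0.187), 0.46 for Hes1 (adjusted p = 0.298) and 0.49 for Notch1 (adjusted p = 0.411), the 3 windows with an unadjusted p under 0.05.

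Among single bins, 36 of the 629 passed the filter in 10000 cells, of which 21 were higher for H3K4me3 and 3 lower, against 53.9% higher and 29.4% lower among all bins tested. The highest fold in each of 6 genes was at or near the start, with 2.76 for Notch2 (chr3:98013601-98014600), 2.68 for Rbpj (chr5:53590786-53591785), 2.68 for Notch1 (chr2:26502896-26503895), 2.60 for Hes1 (chr16:30064881-30065880), 1.96 for Notch3 (chr17:32165871-32166870) and 1.67 for Jag1 (chr2:137116446-137117445). The Jag1 call was lost with TMM scaling (0.72, adjusted p = 0.118) and DESeq2 (0.50, adjusted p = 0.469), and the Notch3 call with DESeq2 (0.81, adjusted p = 0.241). The Notch2 and Hes1 bins named here reached the minimum count in all libraries of both targets. Those of Rbpj, Notch1, Notch3 and Jag1 reached it in all libraries of H3K4me3 alone, so their tests are not independent of the filter. The bins that were lower were the Heyl bin at chr4:123254501-123255500, at -2.61 (SE 0.60, adjusted p = 5.23e-05), the Hey1 bin at chr3:8663966-8664965, at -1.28 (SE 0.35, adjusted p = 6.8e-04), and a bin of the Notch1 window in the neighbouring gene 0610009E02Rik, chr2:26448896-26449895, at -0.98 (SE 0.38, adjusted p = 0.0131). The Heyl bin held 3 H3K4me3 counts over the 3 libraries, against 57 CTCF counts. All 3 bins reached the minimum count through CTCF alone, and the Heyl and Hey1 bins were also the highest CTCF bins of their windows, so these folds are a description. The Notch1 call was lost without the first H3K4me3 library (-0.71, adjusted p = 0.119). In 1000 cells 11 bins were tested and 9 were higher, with 71.9% higher and 19.5% lower among all bins, all 9 in Rbpj, Notch2, Hes1 and Jag1. The bin with the highest fold in each of these genes reached the minimum count in all libraries of H3K4me3 alone. The Rbpj bin with the highest CTCF, 3.8 kb from the start, was not called at either cell number, with folds of 0.13 in 10000 cells and 0.15 in 1000 cells, or -0.83 and -1.94 with TMM scaling.

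The second comparison set H3K27ac against Pol2S2P from the same dual-stained cells. At starts in 1000 cells, 3 of the 10 genes passed the filter, and H3K27ac was higher at 2 of them, against 12.5% higher and 5.88% lower among all starts and a median log2 fold change of 0.10. Rbpj had 11.7 ± 1.23 CPM of H3K27ac and 4.49 ± 1.61 of Pol2S2P (SD, n = 3), a log2 fold change of 1.38 (SE 0.29, adjusted p = 5.76e-05). Hes1 had 10.6 ± 1.28 of H3K27ac and 4.61 ± 1.51 of Pol2S2P (SD, n = 3), a log2 fold change of 1.21 (SE 0.30, adjusted p = 7.13e-04). All 3 H3K27ac libraries lay above all 3 Pol2S2P libraries at both starts. At Hes1 all 3 libraries reached the minimum count for H3K27ac alone, so its test is not independent of the filter. Notch2 had 0.29 (SE 0.31, adjusted p = 0.593). In 100 cells none of the same 3 starts was called, against 21.8% higher and 5.24% lower among all starts, with folds of 0.88 for Hes1, 0.54 for Rbpj and -0.21 for Notch2. None of the 3 had an unadjusted p under 0.05 with edgeR, and DESeq2 called 0 of them.

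Over whole windows in 1000 cells, H3K27ac was higher for Hes1 and Jag2 and lower for Notch2, against 11.5% higher and 41.1% lower among all windows and a median of -0.28. The Hes1 window had 43.3 ± 4.21 CPM of H3K27ac and 18.8 ± 2.77 of Pol2S2P (SD, n = 3), a log2 fold change of 1.21 (SE 0.15, adjusted p = 3.06e-15). The Jag2 window had 28.3 ± 1.73 of H3K27ac and 18.8 ± 0.959 of Pol2S2P (SD, n = 3), a fold of 0.59 (SE 0.16, adjusted p = 8.12e-04) that came to 0.07 (adjusted p = 0.872) over the gene alone without its flanks, where Nudt14 lies. The Notch2 fold was -0.14 (SE 0.06, adjusted p = 0.0415), above the median window, and turned to 0.15 with TMM scaling and 0.14 with DESeq2. Its call was lost without the first H3K27ac replicate (-0.06, adjusted p = 0.473) or any of the 3 Pol2S2P replicates (adjusted p from 0.0570 to 0.118). The Rbpj window, whose start was higher for H3K27ac, had a fold of -0.01 (SE 0.06), or 0.28 with TMM scaling. In 100 cells Hes1 alone of the 9 windows tested was called, at 0.86 (SE 0.24, adjusted p = 2.56e-03), or 0.99 (adjusted p = 0.0743) without its flanks, against 8.69% higher and 29.2% lower among all windows. Notch3 had 0.46 there (adjusted p = 0.0567), or 0.47 (adjusted p = 0.0287) with the replicate number as a block. A change of the H3K27ac over Pol2S2P difference between 1000 and 100 cells was called for 0 of the 10 windows by edgeR, 0 by unadjusted p under 0.05 and 0 by DESeq2, with 0.0% of all windows called and a value of 0.34 (SE 0.28) for Hes1.

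Among single bins in 1000 cells 21 were tested and 9 were higher for H3K27ac, against 55.9% higher and 9.59% lower among all bins tested. They were 3 in Notch2, 3 in Rbpj, 2 in Hes1 and 1 in Nudt14 beside Jag2. The highest fold was in Rbpj, 26.1 kb upstream of the start (chr5:53563786-53564785), at 1.73 (adjusted p = 8.8e-04), next to the bin with the highest H3K27ac of that gene. Its call was lost with TMM scaling (0.81, adjusted p = 0.148) and with DESeq2 (0.80, adjusted p = 0.295). In Notch2 the highest fold was 29.6 kb inside the gene (chr3:98042601-98043600), at 1.01 (adjusted p = 0.0199). That call was lost with TMM scaling (0.09), with DESeq2 (0.08), without the second H3K27ac library (0.86, adjusted p = 0.111) and without the first or the second Pol2S2P library (1.02 and 0.93). In Hes1 the highest fold was 1.43, at chr16:30065881-30066880, and its call was lost with TMM scaling (0.52), with DESeq2 (0.51), without the second or the third H3K27ac library (1.47 and 1.30) and without the first or the third Pol2S2P library (0.92 and 1.38). The call in Nudt14 was lost with TMM scaling (0.49), with DESeq2 (0.48) and without the second H3K27ac library (1.21, adjusted p = 0.0679). At these 4 bins all 3 libraries reached the minimum count for H3K27ac but not for Pol2S2P, so their tests are not independent of the filter. In 100 cells the Notch2 bin 43.6 kb from the start was the only one of the 629 that passed the filter, at 0.96 (adjusted p = 0.0484), against 70.8% higher and 6.55% lower among all bins tested. It turned to -0.56 with TMM scaling and lost its call with the replicate block (0.99, adjusted p = 0.0724). In this bin too all 3 libraries reached the minimum count for H3K27ac but not for Pol2S2P. It was also the highest H3K27ac bin of its window, so its fold is a description.

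The number of cells was compared within each target. For H3K4me3 in 10000 over 1000 cells, the Rbpj window was the only one of the 10 that was called, at 193 ± 15.9 CPM in 10000 cells and 234 ± 18.4 in 1000 cells (SD, n = 3), a log2 fold change of -0.28 (SE 0.08, adjusted p = 0.0415), against 0.509% lower and 2.04% higher among all windows. Without the first or the second replicate of either cell number the call was lost, at folds from -0.22 to -0.29 and adjusted p from 0.0573 to 0.301, as it was with DESeq2 (adjusted p = 0.183). Hes1 had 113 ± 8.45 in 10000 cells and 89.5 ± 2.74 in 1000 cells (SD, n = 3), at 0.33 (adjusted p = 0.108). No window of the 10 was called for CTCF in 10000 over 1000 cells, for H3K27ac in 1000 over 100 cells or for Pol2S2P in 1000 over 100 cells, against 0.255%, 0.0% and 0.0105% of all windows by edgeR. Of the 10, 1 window had an unadjusted p under 0.05 in each of these 3 comparisons, Dll1 for CTCF, Notch2 for H3K27ac and Rbpj for Pol2S2P, and DESeq2 called 0 in each.

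Dual staining was compared with single staining for the 2 targets that had both. For CTCF in 10000 cells edgeR called 0 of the 10 windows, with 0 at an unadjusted p under 0.05 and 0 called by DESeq2, against 1.32% of all windows by edgeR, with folds from -0.17 at Jag1 to 0.15 at Hey1. For Pol2S2P in 1000 cells, 5 of the 10 windows were lower in dual-stained cells and none was higher, against 37.7% lower and 12.1% higher among all windows and a median log2 fold change of -0.18. The Notch2 window was at 3.72, 3.66 and 3.59 times the genome mean in dual-stained cells and 4.99 and 5.18 times in single-stained cells, a fold of -0.47 (SE 0.06, adjusted p = 5.69e-12). The Hes1 window was at 1.88, 2.5 and 2.06 times in dual-stained cells and 4.18 and 3.19 times in single-stained cells, a fold of -0.81 (SE 0.18, adjusted p = 6.44e-05). The Rbpj window was at 4.27, 4.23 and 4.44 times in dual-stained cells and 4.91 and 5.38 times in single-stained cells, a fold of -0.25 (SE 0.07, adjusted p = 1.04e-03). The Hes1 call was lost without the first single-stained library (-0.58, adjusted p = 0.0574) and the Rbpj call without the second (-0.19, adjusted p = 0.0665). In all 3 windows both single-stained libraries lay above the 3 dual-stained ones, a separation whose share among all windows was not counted. With TMM scaling, under which the median of all windows was 0.01, the folds were -0.28 for Notch2 and -0.62 for Hes1 with their calls kept and -0.06 for Rbpj with its call lost. Jag2 (-0.49, adjusted p = 0.0271) and Notch1 (-0.32, adjusted p = 0.0400) also lost their calls, at -0.30 and -0.13, and Notch3 was called at 0.35 (adjusted p = 0.0272). Jag2 lost its call as well without the third dual-stained library (-0.45) or the second single-stained one (-0.34), and Notch1 without either single-stained library or the second or the third dual-stained one (-0.24 to -0.34).

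**Figure D4:**
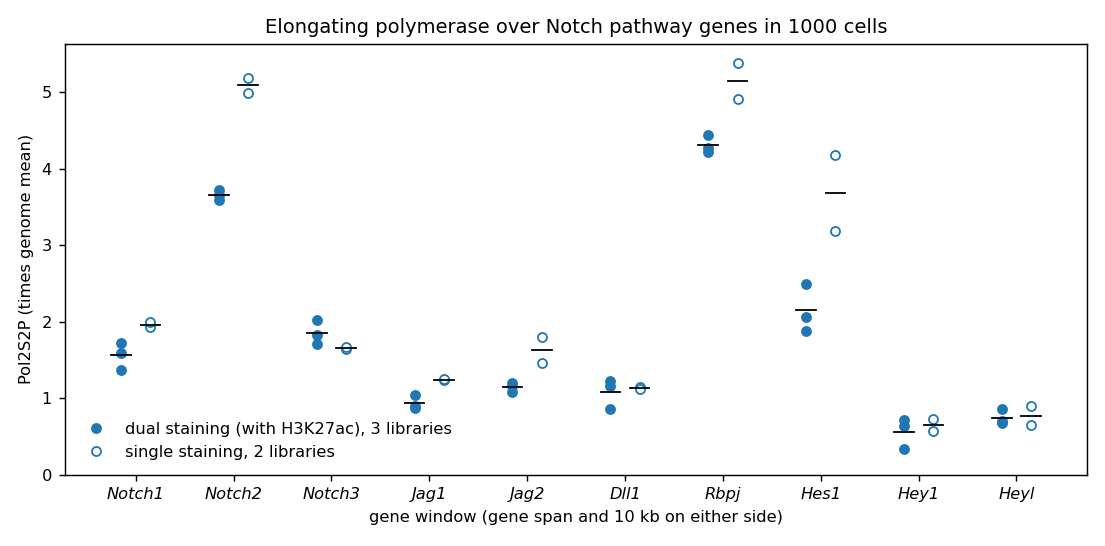
Pol2S2P level over the windows of the 10 genes in 1000 cells, as times the genome mean (vertical axis), for dual staining (3 libraries) and single staining (2 libraries), with dots for libraries and bars for group means. The single-stained libraries lie above the dual-stained ones at Notch2, Hes1 and Rbpj. With TMM scaling the fold of Rbpj is -0.06 and not called, and that of Notch2 is -0.28 and called.

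A list of 46 other genes of the pathway (further ligands and receptors, Fringe glycosyltransferases, ubiquitin ligases, gamma-secretase subunits, coactivators and targets) gave the setting. For H3K4me3 over CTCF at starts in 10000 cells, 37 of the 46 were tested, 32 were higher and 2 lower, with a median of 2.16 against 1.93 over all starts. Among all starts tested 85.0% were higher and 5.76% lower, so these counts are near the background. The highest folds were those of Rfng, a Fringe glycosyltransferase, at 3.19 (SE 0.24, adjusted p = 3.06e-31), and Mib1, a ubiquitin ligase that acts on ligands, at 3.03 (SE 0.21, adjusted p = 3.12e-37). The 2 lower starts were those of Dtx4, a Deltex ubiquitin ligase, at -1.25 (SE 0.20, adjusted p = 3.71e-09), and Dner, a transmembrane protein related to the ligands, at -1.18 (SE 0.43, adjusted p = 7.66e-03). In 1000 cells 28 of 31 tested were higher, with Ncstn, a gamma-secretase subunit, at 3.37 and Mib1 at 3.32, and Dtx4 was the 1 that was lower, at -1.43 (adjusted p = 1.13e-04). Among all starts tested in 1000 cells 87.4% were higher and 3.74% lower, again near these counts. For H3K27ac over Pol2S2P at starts in 1000 cells 24 were tested, of which 1 was higher and 3 were lower. Among all starts tested there 12.5% were higher and 5.88% lower. Lfng, a Fringe glycosyltransferase, was higher at 0.90 (adjusted p = 0.0276), and Adam17, a protease that cuts the receptors, was among the lower ones at -1.01 (adjusted p = 0.0158). These stand beside 6 higher and 1 lower start for H3K4me3 over CTCF in 10000 cells, and 2 higher and 0 lower for H3K27ac over Pol2S2P in 1000 cells, among the 10 genes.

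Across the 28 libraries of 4 targets, the gene whose start followed that of Rbpj most closely was Prpf38b (Pearson's r of log2(CPM + 0.5), 0.97). The most alike start was that of Ltbp1 for Hes1 (0.97), Pbrm1 and Gnl3 alike for Notch2 (0.96), Glul for Jag1 (0.96), Lonp2 for Notch1 (0.92), Col26a1 for Hey1 (0.92), Slc39a11 for Jag2 (0.88), Vit for Dll1 (0.79), Dhdds for Notch3 (0.78) and Cyp4x1 for Heyl (0.58). These values describe the libraries, which share target, staining and depth, and were not tested.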

How the data were processed

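The authors deposited 1 table of raw read counts in 1 kb bins, which are whole numbers and carry no scaling. Per the submitters' processing notes, bcl2fastq, HISAT2 2.1.0, deepTools 3.3.1 and the GRCm38 build were used. The treatment of duplicate and multiply mapped reads, and of the antibodies' barcodes, is not given in the sources read, and a choice there would change the counts of every gene. Of 34 samples 28 matched a column by name. The other 6, all of a primary-antibody version at 100 cells, were not analysed here, and 4 columns that matched no sample were not used. Bins outside the autosomes and X, and 9 bins whose level passed 50 times the genome mean in all groups, were left out.

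The 10 genes and the lists beside them were chosen with earlier results of these data known. Genes were placed with RefSeq coordinates (GRCm38.p6). Starts came from the RefSeq promoter table for 17274 genes. For others the start was the gene end with more H3K27ac counts, in levels, in the likeness of patterns and in tests of H3K4me3 over CTCF. In tests of H3K27ac over Pol2S2P it was the end with more H3K4me3 counts. Both choices took the same end of Hes1 and of Heyl but not of Hey1. Counts were summed over starts, windows (gene and 10 kb flanks) and single bins. Each was tested across all features with edgeR 4.0.16 (quasi-likelihood test in R 4.3.3, filterByExpr, library totals as library sizes without further scaling), fitted on the libraries of the groups compared, with Benjamini-Hochberg adjustment over all features tested and a threshold of 0.05. The scripts were tested on simulated data.

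All 10 genes are named. Of the other pathway genes the text names up to 2 with the largest fold in each direction among those called at starts, of each window the bins with the highest count or the largest fold, and per gene the 1 start with the most alike pattern. The result of 1 other pathway gene is not reported here. Alternatives were TMM scaling, DESeq2 1.42.0, no filter, no flanks, wider starts (2.5 kb), a lower minimum count, the replicate block and leaving out each library. For H3K27ac and Pol2S2P, libraries with the same replicate number deviated together from their group means (r from 0.118 to 0.148 in 1000 cells and from 0.110 to 0.121 in 100 cells, against -0.051 or less between other numbers), so the numbers pair those libraries. No 2 replicate libraries were identical. Where the libraries of 2 groups are said to lie apart, the share of all genes at which they do was not counted.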

Additional observations from a re-analysis of the deposited data

How the results depend on the processing

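Of 1987 values of single genes and bins compared with an alternative, 1848 kept their side of the threshold, 90 lost a call, 20 gained one and 29 changed sign and were called under at least 1 of the 2 settings, all 29 with TMM scaling or DESeq2. Of the 1848, 139 changed sign without a call under either setting. With TMM scaling and DESeq2, in that order, the log2 fold changes of the 29 were, for H3K27ac over Pol2S2P, the Notch2 window (0.15 and 0.14) and the Rbpj window (0.28 and 0.27) in 1000 cells and, with TMM alone, the Notch2 window in 100 cells (0.26). The Notch2 bin at 98056601 gave -0.56 and -0.54 in 100 cells. For H3K4me3 over CTCF at starts they were Jag1 (-0.21 and -0.24) and Notch3 (-0.43 and -0.45) in 10000 cells and Notch1 (-0.59 and -0.57) and Hes1 (-0.040 and -0.051) in 1000 cells. Among bins for H3K4me3 over CTCF they were Jag1 at 137113446 (-0.20 and -0.42), Notch2 at 98056601 (-0.20 and -0.45), Rbpj at 53593786 (-0.83 and -1.08) and, with DESeq2 alone, Notch1 at 26506896 (-0.088) in 10000 cells. In 1000 cells they were Jag1 at 137114446 (-0.19 and -0.29), Rbpj at 53593786 (-1.94 and -2.10), Hes1 at 30066881 (-1.42 and -1.52) and, with DESeq2 alone, Hes1 at 30064881 (-0.061). These scalings set the median of all features near 0, which shifts every fold by their construction.

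The count of windows called for H3K27ac over Pol2S2P, 3 in 1000 cells, was 6 with TMM scaling and 1 without flanks. In 100 cells it was 1, or 5 with TMM scaling, 2 with DESeq2, 2 with the replicate block, 0 without flanks and 1 to 2 leaving out a library. The 1 window called for H3K4me3 in 10000 over 1000 cells became 0 with DESeq2, 0 without flanks and 0 to 1 leaving out a library. The 5 called for Pol2S2P in dual over single staining became 3 with TMM scaling, 1 with DESeq2, 3 with the replicate block and 2 to 5 leaving out a library. At starts, the 7 calls for H3K4me3 over CTCF in 10000 cells became 4 with DESeq2, and the 5 in 1000 cells became 2 with TMM scaling and 2 with DESeq2. For bins of H3K4me3 over CTCF, 24 calls in 10000 cells became 37 with a minimum count of 5, and 9 in 1000 cells became 2 with DESeq2, 15 with that minimum and 9 to 14 leaving out a library. For bins of H3K27ac over Pol2S2P, 9 in 1000 cells became 2 with TMM scaling, 1 with DESeq2, 22 with the minimum of 5 and 9 to 17 leaving out a library. In 100 cells 1 became 0 with TMM scaling, 0 with DESeq2, 0 with the replicate block, 5 with the minimum of 5 and 0 to 3 leaving out a library. A lower minimum tests more bins, and windows without flanks hold fewer counts. For the other differences the cause was not tested.

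Among all windows, calls for H3K4me3 over CTCF in 10000 cells were higher in 58.7% of cases, or 48.4% with TMM scaling. For H3K4me3 and CTCF the replicate numbers correlated at 0.042 to 0.049 in 10000 cells and 0.082 to 0.096 in 1000 cells, every library closest to its own number, and the replicate block left 6 and 5 windows called. For the cell-number and staining comparisons the samples share only a number. The starts of Jag2, Dll1 and Heyl held too few counts to be tested in any comparison. Whether more depth would change that was not tested.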
